A study of Mus musculus with 10 samples.

Results

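Microglia and complement transcripts were measured in S1BF, the barrel field of the somatosensory cortex in which the whiskers are mapped, of mice at postnatal day 17. The set holds 9 genes, taken by name from the 52636 genes in the deposited table: Cx3cr1, P2ry12, Tmem119, Csf1r, C1qa, C1qb, C1qc, Trem2 and Ctss. Each name occurred on 1 row, and all 9 genes passed the low-count filter, as did 18455 genes in all. The cKO mice (n = 4) carried Nex-cre and the floxed Rxra allele (Rxra tm1Krc) as a conditional knockout of Rxra, which encodes a retinoid X receptor, a nuclear receptor bound by vitamin A derivatives. The Hetero mice (n = 2) carried Nex-cre and the floxed allele as the heterozygous knockout, and the Loxp mice (n = 4) carried the floxed allele without Cre. All were on the C57BL/6 strain. Nex-cre is driven from the Neurod6 locus and acts in excitatory neurons of the cortex. Microglia do not descend from that lineage. Whether a library stands for 1 animal is not said in the labels, and the p-values measure only how these samples spread, which may be technical.

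Microglia are the resident macrophages of the brain. They arise from yolk sac progenitors, survive on signals through Csf1r, scan the tissue with mobile processes and, during postnatal development, engulf synapses. In the mouse, C1q and the complement factor C3 tag synapses that are removed in the developing visual system. Mice without Cx3cr1 show delayed maturation of thalamocortical synapses in the barrel field.

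Library totals ran from 19332990 to 26086337 counts, and no pair of libraries was alike within counting error, with a mean chi-square per gene of 4.92 to 41.2 over the 45 pairs. Rxra was not lower over the whole gene in cKO, at 30.7 ± 1.74 CPM (counts scaled to a common library size with TMM factors) in cKO (SD, n = 4) and 26.5 ± 4.43 in Loxp (SD, n = 4), which edgeR put at 0.21 ± 0.112 (log2 fold change ± SE, adjusted p = 1). Such counts include transcripts without the floxed part and so do not check the deletion. Neurod6, where Nex-cre is inserted, stood at 22.9 to 38.1 CPM in cKO and 34.0 to 34.4 in Hetero, against 55.7 to 66.7 in Loxp 1, 2 and 3. The library labelled Loxp 4 had 34.9 CPM of Neurod6, within the range of the Cre groups. Hetero 2 had 699 CPM of Ttr, the transthyretin gene of the choroid plexus, against 0.558 to 18.5 CPM in the other 9 libraries. Results are therefore also given without the library labelled Loxp 4 and without Hetero 2.

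Markers of monocytes and neutrophils were near 0 in these libraries. Over their 8 markers the summed level was 0.394 to 0.506 CPM in cKO, 0.409 to 0.539 in Hetero and 0.160 to 0.722 in Loxp, and none of the 8 passed the filter. Ly6c2, a marker of inflammatory monocytes, was at 0 counts in 9 of 10 libraries. The 8 markers of T, B and NK cells summed to 0.561 to 9.34 CPM in cKO, 3.82 to 4.65 in Hetero and 0.526 to 7.32 in Loxp, and 2 of them, Cd4 and Cd79a, passed the filter. Cd4 made up most of that, with 0.302 to 8.95 CPM and a count in every library, while the T cell receptor component Cd3e was at 0 counts in 8 of 10 libraries. Border macrophages line the vessels and meninges and also express Csf1r, Cx3cr1 and C1q. Their 8 markers summed to 34.5 to 38.5 CPM in cKO, 35.7 to 38.8 in Hetero and 32.9 to 42.0 in Loxp. Stab1 made up 23.9 to 33.2 CPM of that, and Mrc1, the mannose receptor that marks these cells, 1.64 to 6.41 CPM. The 9 genes together summed to 325 to 398 CPM in cKO, 304 to 306 in Hetero and 322 to 368 in Loxp. In such bulk tissue fewer cells of a type and less RNA per cell cannot be told apart.

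C1qa, C1qb and C1qc encode the A, B and C chains of C1q, the recognition molecule that starts the classical complement pathway, and they are neighbours in the genome. In GENCODE M21 (GRCm38, the mm10 build) they lie on the minus strand of chromosome 4: C1qb at chr4:136880129-136886187, C1qc at chr4:136889804-136893065 and C1qa at chr4:136895917-136898803. The cluster spans 18675 bases, with 3616 bases between C1qb and C1qc and 2851 between C1qc and C1qa. Ctss, the lysosomal protease cathepsin S, lies on the plus strand of chromosome 3 (chr3:95526786-95556403). Upstream sequences from RefSeq (GRCm38.p6) matched 6 of the 9 genes, and those of C1qb, C1qc and Ctss are shown since the results set the C1q genes, which varied together across libraries, beside Ctss. Each runs 5′ to 3′ on the strand of its gene and ends before the start of the gene in both RefSeq and GENCODE. Capitals mark GAGGAA, the core bound by the myeloid factor PU.1 (TTCCTC on the other strand), and AGGTCA, the half-site bound by RXR and its partner receptors (TGACCT on the other strand).
C1qb, chr4:136886201-136886450: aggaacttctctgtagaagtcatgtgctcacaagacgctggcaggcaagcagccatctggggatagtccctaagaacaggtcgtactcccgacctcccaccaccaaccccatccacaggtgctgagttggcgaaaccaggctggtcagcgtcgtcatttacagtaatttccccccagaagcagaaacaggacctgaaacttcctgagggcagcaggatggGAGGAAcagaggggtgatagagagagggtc
C1qc, chr4:136893066-136893164: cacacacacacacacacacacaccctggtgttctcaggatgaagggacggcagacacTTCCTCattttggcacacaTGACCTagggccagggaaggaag
Ctss, chr3:95526536-95526785: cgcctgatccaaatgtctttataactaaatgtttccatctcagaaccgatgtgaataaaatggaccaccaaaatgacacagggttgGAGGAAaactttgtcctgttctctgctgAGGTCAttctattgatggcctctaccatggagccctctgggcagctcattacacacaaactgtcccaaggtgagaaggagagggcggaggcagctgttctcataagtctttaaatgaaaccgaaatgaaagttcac

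In the 250 bases before the RefSeq start, GAGGAA occurred in 4 of the 6 genes (C1qb, C1qc, Trem2 and Ctss) on either strand, against 23.3% of 32851 promoters of the same length. AGGTCA occurred in 4 of the 6 (P2ry12, C1qc, Trem2 and Ctss), against 14.0% of those promoters. The composite element of PU.1 and its IRF partners occurred in 0 of the 6, against 2.30%. The window of Cx3cr1 lies inside its longer GENCODE gene. The motifs do not overlap in the sequences shown. A match describes letters only, and says nothing of binding in these samples.

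Set per length, C1qa and C1qb stood highest of the 9 genes and Trem2 lowest. On the deposited FPKM scale, which divides by gene length and library depth, C1qa averaged 41.5 ± 5.90, followed by C1qb at 28.7 ± 3.73, Ctss at 21.5 ± 3.02, C1qc at 20.3 ± 3.32 and Csf1r at 16.3 ± 1.12 (SD over the 10 libraries). Next came P2ry12 at 11.2 ± 1.58, Tmem119 at 10.8 ± 1.75 and Cx3cr1 at 9.70 ± 0.745 FPKM, and last Trem2 at 2.53 ± 0.194 FPKM. C1qa exceeded C1qb, C1qb exceeded Ctss, C1qc exceeded Csf1r, Csf1r exceeded P2ry12 and Cx3cr1 exceeded Trem2 in 10 of 10 libraries. Ctss exceeded C1qc in 8 of 10, P2ry12 exceeded Tmem119 in 6 of 10 and Tmem119 exceeded Cx3cr1 in 8 of 10, so the order within those neighbours was within the spread. Counts behind these values ran from 236 to 344 for Trem2 and from 1443 to 2169 for Csf1r. C1qa lay above 93.6% of the tested genes in mean FPKM, Cx3cr1 above 72.8% and Trem2 above 43.8%.

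The gene models bear on those levels. Counts and FPKM together imply a length of 4973 bases for Trem2, near the 4946 bases of all its annotated exons, while its coding transcripts in GENCODE M21 are 1056 to 1088 bases long. A level per length over the coding transcripts alone would be higher than 2.53 FPKM. For C1qc the implied length was 1942 bases, against 1203 for its coding transcript. Csf1r (chr18:61100598-61132149) shares 873 exonic bases, 15.1% of its exons, with Hmgxb3 on the opposite strand, and its implied length of 4912 bases is below the 5774 of its annotated exons. P2ry12 (chr3:59216272-59262871) lies within Med12l on the opposite strand and shares 9 exonic bases with it. Cx3cr1 (chr9:119901616-120069879) spans other genes and shares 78 exonic bases with the weakly counted antisense gene Gm33858. Whether the counting used strand is not given in the sources used here, so the counts of Csf1r carry the larger uncertainty from an overlap. Tmem119 (chr5:113793729-113800516), the C1q genes and Trem2 (chr17:48346401-48354147) overlap no other annotated gene.

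Among the surface receptors, Csf1r is the kinase through which Csf1 and Il34 keep microglia alive. It stood at 79.6, 93.7, 81.9 and 79.8 CPM in cKO 1 to 4, at 73.7 and 73.9 CPM in Hetero 1 and 2, and at 80.1, 79.7, 77.2 and 79.5 CPM in Loxp 1 to 4. The Loxp libraries lay within 3 CPM of each other, cKO 2 stood above every other library, and both Hetero libraries lay below all the others. Cx3cr1, the receptor of the neuronal chemokine fractalkine, stood at 45.0, 52.0, 42.4 and 39.7 CPM in cKO, at 41.9 and 41.8 CPM in Hetero, and at 43.8, 46.7, 44.5 and 42.3 CPM in Loxp. The cKO libraries held the highest and the lowest value and spanned the whole Loxp range.

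P2ry12, the ADP receptor that steers microglial processes towards released nucleotides, stood at 30.0, 37.0, 26.4 and 28.0 CPM in cKO, at 30.8 and 26.7 CPM in Hetero, and at 25.5, 32.9, 26.0 and 23.3 CPM in Loxp. All 3 genotypes overlapped, with cKO 2 highest and the library labelled Loxp 4 lowest. Trem2, a lipid-sensing receptor that signals through Tyrobp, stood at 13.6, 14.1, 11.95 and 13.3 CPM in cKO, at 12.1 and 11.7 CPM in Hetero, and at 12.6, 11.9, 11.2 and 13.4 CPM in Loxp. Its values overlapped between all groups. Tmem119, a membrane protein used to tell microglia from other macrophages, stood at 22.5, 35.1, 25.1 and 22.6 CPM in cKO, at 21.5 and 22.3 CPM in Hetero, and at 28.1, 26.8, 22.9 and 23.8 CPM in Loxp. cKO 2 was highest for Tmem119 and both Hetero libraries were below all the others, and the coefficient of variation was 22.6% in cKO and 9.68% in Loxp.

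C1qa stood at 40.2, 54.8, 42.4 and 45.1 CPM in cKO, at 36.8 and 39.1 CPM in Hetero, and at 53.9, 39.7, 39.7 and 42.4 CPM in Loxp. C1qb stood at 28.3, 35.3, 29.3 and 38.0 CPM in cKO, at 25.6 and 28.1 CPM in Hetero, and at 36.6, 29.3, 33.0 and 30.7 CPM in Loxp. C1qc stood at 37.1, 52.3, 36.5 and 44.9 CPM in cKO, at 34.6 and 34.8 CPM in Hetero, and at 47.1, 32.3, 35.6 and 38.9 CPM in Loxp. All of the C1q genes were high in cKO 2, cKO 4 and Loxp 1 and low in Hetero 1, and the cKO and Loxp ranges overlapped for each. Ctss stood at 29.5, 24.3, 28.7 and 28.8 CPM in cKO, at 27.3 and 27.9 CPM in Hetero, and at 40.1, 28.5, 31.4 and 27.7 CPM in Loxp. It was highest in Loxp 1 and lowest in cKO 2, where the other 8 genes lay above their own means, and its groups overlapped.

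**Figure D1:**
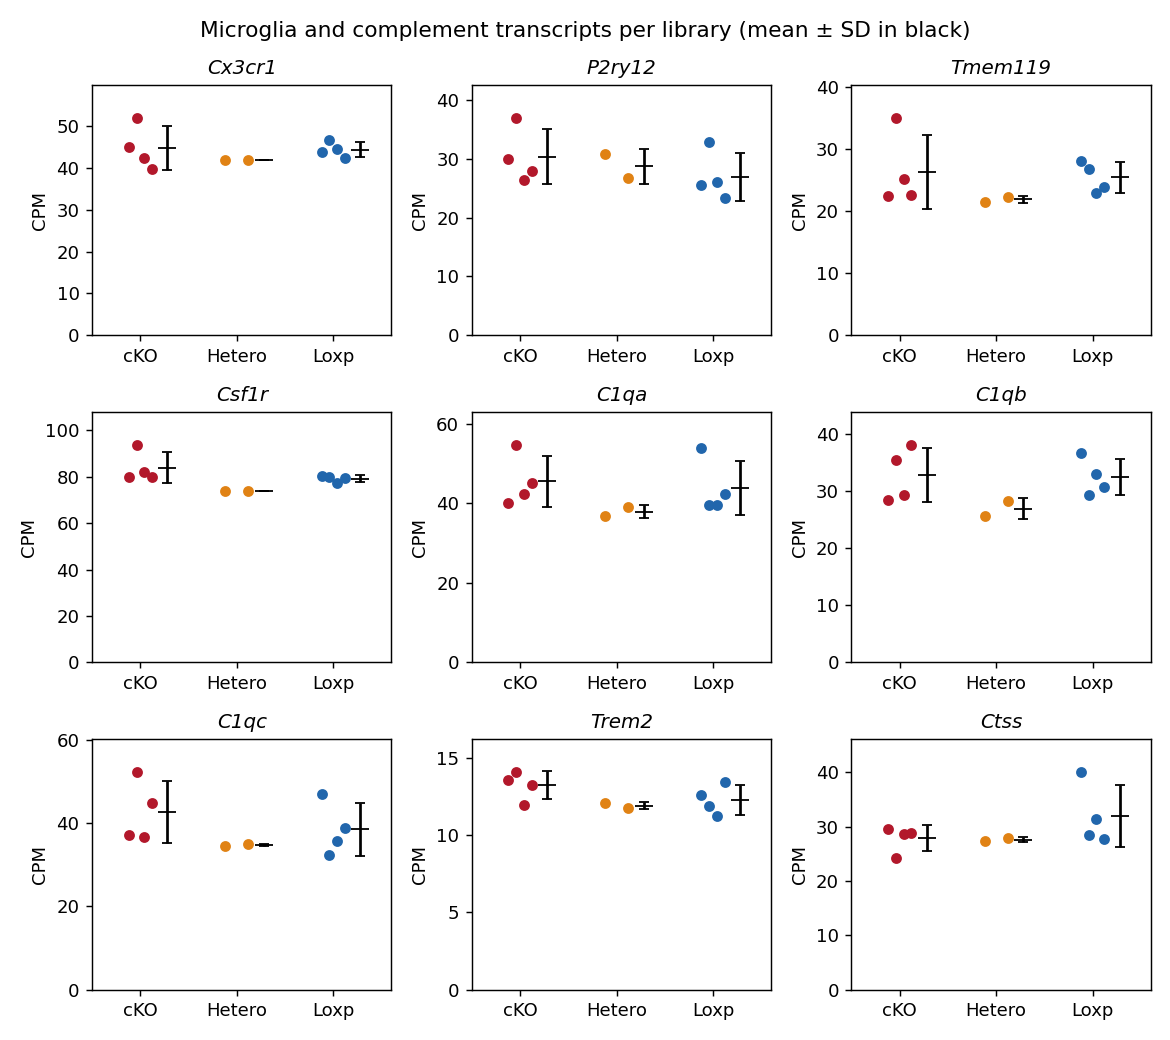
CPM of each of the 9 genes (vertical axis, from 0) in cKO (n = 4), Hetero (n = 2) and Loxp (n = 4); each point is a library, ordered by its number, and the black marks give the mean ± SD. The cKO and Loxp points overlap in every panel, and the Hetero points lie below all the others for Tmem119, Csf1r, C1qa and C1qb (73.7 and 73.9 CPM for Csf1r).

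The comparison of cKO with Loxp asked whether these transcripts differ when Rxra is deleted from excitatory neurons, in groups that also differ in Nex-cre. Of the 9 genes, 0 passed the threshold of an edgeR adjusted p under 0.05, as did 0 of all 18455 genes tested (0%). At an unadjusted p under 0.05 there were 0 of the 9 and 2.53% of all genes. For 0 of the 9 did the cKO and Loxp libraries fail to overlap, against 1.54% of all genes. The log2 fold change was above 0 for 8 of the 9, against 50.1% of all genes, and below 0 for Ctss. Its median was 0.06, beside 0.00033 over all genes tested. Without cKO 2 the median was −0.02, so the side of zero on which it lay was set by that library. Without Loxp 1 it was 0.10, and without the library labelled Loxp 4 it was 0.04. The main fit did not pair libraries by replicate number. With a replicate block added to it the median was 0.05, and 0 of the 9 passed. cKO 2 also differed from the other cKO libraries in markers of other cells. Oligodendrocyte precursor markers summed to 456 CPM in cKO 2 and 236 to 256 in the other 3, and astrocyte markers to 2265 and 1852 to 1911. Oligodendrocyte markers summed to 6376 CPM in cKO 2 and 8757 to 10355 in the other 3, interneuron markers to 649 and 879 to 990, and meningeal fibroblast markers to 32.6 and 54.5 to 63.4. In Loxp, Loxp 2 lay on the same side for oligodendrocyte precursor markers, at 352 CPM against 233 to 262 in the other 3. It did so for interneuron markers too, at 664 CPM against 933 to 950. Its astrocyte markers were the highest in Loxp, at 1980 CPM against 1882 to 1903 in the other 3. Its oligodendrocyte markers were the lowest, at 8806 CPM against 8974 to 11118, so these lay on the same side as well. Its meningeal fibroblast markers, at 57.4 CPM, lay within the 48.5 to 64.5 of the other 3. The part of these markers in the values of cKO 2 was not tested.

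The intervals show how large a difference between cKO and Loxp the libraries could hide. Ctss had the smallest unadjusted p, 0.110, at 27.8 ± 2.39 CPM in cKO and 31.9 ± 5.65 in Loxp (SD, n = 4 each), which edgeR put at −0.20 ± 0.115 (log2 fold change ± SE, 95% interval −0.45 to 0.05, adjusted p = 1). Leaving out Loxp 1 brought it to −0.07. P2ry12 followed at 30.4 ± 4.66 CPM in cKO and 26.9 ± 4.13 in Loxp, which edgeR put at 0.17 ± 0.126 (log2 fold change ± SE, adjusted p = 1). Without cKO 2 it was 0.07. Csf1r had the narrowest interval, −0.07 to 0.24 on the log2 scale, at 83.8 ± 6.69 CPM in cKO and 79.1 ± 1.31 in Loxp. Over the 9 genes the 95% intervals of single genes reached from 0.734-fold (Ctss) to 1.36-fold (P2ry12).

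**Figure D2:**
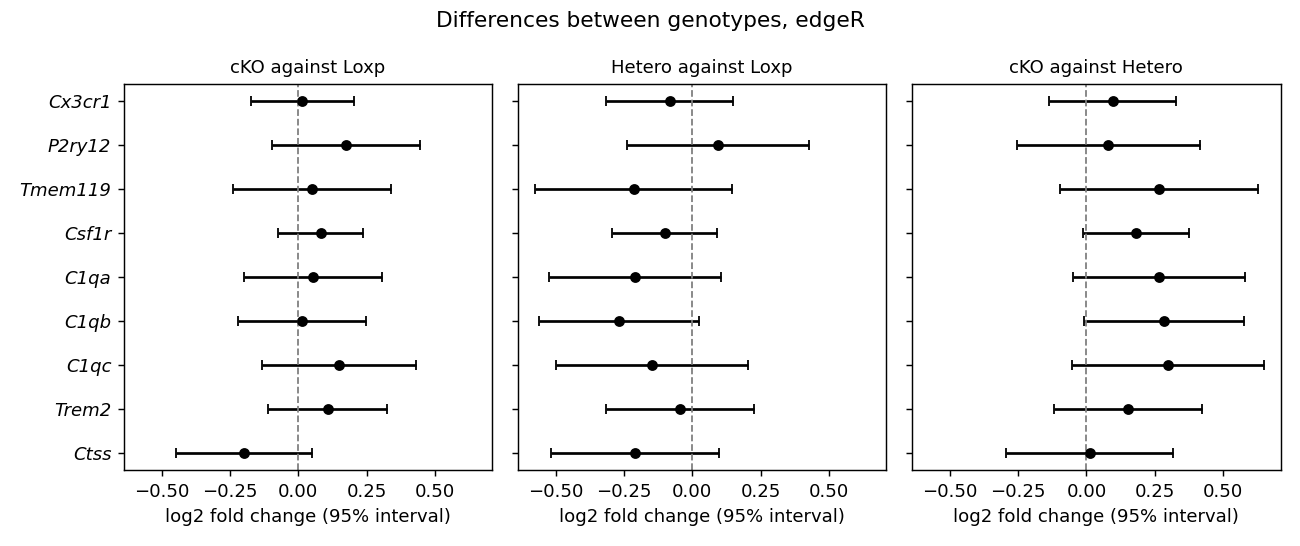
Log2 fold change of each gene (points) with its 95% interval (bars, single gene) by edgeR in the 3 comparisons of genotypes (titles above the panels); the dashed line marks 0. Every interval crosses 0, with C1qb reaching from −0.56 to 0.02 in Hetero against Loxp.

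For the heterozygous deletion, Hetero was set against Loxp with 2 Hetero libraries and the same 4 Loxp libraries as before. Hetero 1 and Hetero 2 were each lower than all 4 Loxp libraries for 5 of the 9 genes (Cx3cr1, Tmem119, Csf1r, C1qa and C1qb), against 5.77% of all genes that lay lower in Hetero in this way. In the other direction were 0 of the 9, against 5.64% of all genes. Some of the 9 genes, among them the C1q genes, varied together across libraries, so the 9 are not separate observations. By edgeR, 0 of the 9 passed, as did 0% of all genes, and 0 of the 9 had an unadjusted p under 0.05, against 2.54% of all genes. The log2 fold change was below 0 for 8 of the 9 and above 0 for P2ry12, while 48.2% of all genes lay above 0. Its median was −0.15, beside −0.0068 over all genes. C1qb had the smallest unadjusted p, 0.0690, at 26.9 ± 1.77 CPM in Hetero (SD, n = 2) and 32.4 ± 3.21 in Loxp (SD, n = 4), which edgeR put at −0.27 ± 0.136 (log2 fold change ± SE, adjusted p = 1). C1qa averaged 37.9 ± 1.62 CPM in Hetero and 43.9 ± 6.80 in Loxp, which edgeR put at −0.21 ± 0.146 (log2 fold change ± SE, adjusted p = 1), and −0.10 without Loxp 1. Over the 9 genes the intervals reached from 0.671-fold (Tmem119) to 1.34-fold (P2ry12). The median was −0.15 without Hetero 2, −0.13 without the library labelled Loxp 4 and −0.09 without Loxp 1.

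The comparison of cKO with Hetero set full against heterozygous deletion with Nex-cre in both groups. It shares its Hetero libraries with the comparison of Hetero with Loxp. All 4 cKO libraries lay above both Hetero libraries for 5 of the 9 genes (Tmem119, Csf1r, C1qa, C1qb and C1qc), against 4.9% of all genes that lay higher in this way, 4.54% that lay lower and 9.43% in either direction. The log2 fold change was above 0 for 9 of the 9 genes, against 52.5% of all genes, with a median of 0.18, beside 0.0078 over all genes. By edgeR, 0 of the 9 passed, as did 0% of all genes, and 0 of the 9 had an unadjusted p under 0.05, against 1.74% of all genes. C1qb stood at 32.8 ± 4.69 CPM in cKO and 26.9 ± 1.77 in Hetero (SD, n = 4 and 2), which edgeR put at 0.28 ± 0.136 (log2 fold change ± SE, unadjusted p = 0.0564, adjusted p = 1). Csf1r stood at 83.8 ± 6.69 CPM in cKO and 73.8 ± 0.105 in Hetero, which edgeR put at 0.18 ± 0.0898 (log2 fold change ± SE, unadjusted p = 0.0623, adjusted p = 1). Ctss was at 0.01 (SE 0.142). Without cKO 2 the median was 0.12, and without Hetero 2 it was 0.18. Over the 9 genes the intervals reached from 0.815-fold (Ctss) to 1.57-fold (C1qc).

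Markers of other cell types in the same libraries stand beside these values. The 8 astrocyte markers summed to 1739 and 1754 CPM in Hetero, with 1852 to 2265 CPM in cKO and 1882 to 1980 CPM in Loxp. In Hetero against Loxp, 7 of the 8 astrocyte markers had a log2 fold change under 0, at a median of −0.10 (0 passed), and 8 of the 8 had one above 0 in cKO against Hetero, at a median of 0.19 (0 passed). The 6 choroid plexus markers summed to 6.74 CPM in Hetero 1 and 731 in Hetero 2, against 3.60 to 22.5 in cKO and 2.95 to 7.43 in Loxp. Oligodendrocyte markers summed to 6777 to 9834 CPM in Hetero and 6376 to 10355 in cKO, against 8806 to 11118 in Loxp. The part of these differences in the values of the microglial genes was not tested.

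Averaged over the 9 genes, after each gene was centred on its own mean over the libraries, the level on the log2 scale was −0.02, 0.24, −0.04 and 0.04 in cKO 1 to 4, −0.12 and −0.12 in Hetero 1 and 2, and 0.15, −0.02, −0.05 and −0.05 in Loxp 1 to 4. The 2 Hetero libraries were the lowest of the 10, with 1 and 0 of the 9 genes above their mean. cKO 2 and Loxp 1 were the highest, with 8 and 7 of the 9 genes above their mean. The spread within a genotype was 0.132 in cKO and 0.0947 in Loxp (SD of that level). Both were larger than the difference between the group means, which were 0.05 in cKO and 0.01 in Loxp.

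**Figure D3:**
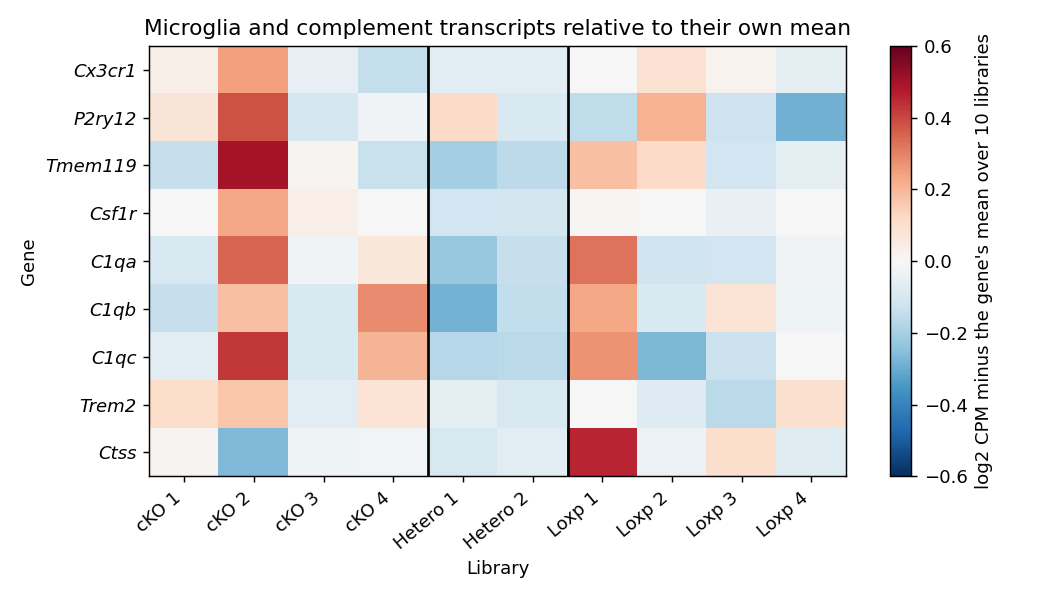
Log2 CPM of each gene (rows) in each library (columns, cKO, Hetero and Loxp from left to right) minus the mean of that gene over the 10 libraries; red is above and blue below it. cKO 2 is red for every gene but Ctss, and the Hetero columns are blue except P2ry12 in Hetero 1. Loxp 1 lay above the mean for 7 genes, clearly for Tmem119, the C1q genes and Ctss and barely for Csf1r and Trem2.

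The C1q chains varied together across libraries. Over the 10 libraries C1qa and C1qc had a Pearson r of 0.934 and a Spearman rho of 0.927 (permutation tests, p = 0.00014 and 0.00027, adjusted over the 36 pairs of the 9 genes p = 0.00504 and 0.00972). Without cKO 2 and Loxp 1, the libraries farthest from the median of C1qa, r was 0.814. C1qa and C1qb had r = 0.796 and rho = 0.794 (permutation p = 0.00419 and 0.00859, adjusted p = 0.0365 and 0.0773), and r was 0.809 without the same libraries. C1qb and C1qc had r = 0.801 and rho = 0.721 (permutation p = 0.00551 and 0.0229, adjusted p = 0.0365 and 0.119), and r was 0.71 without cKO 4 and Loxp 1. With each genotype centred on its own mean, r was 0.939, 0.722 and 0.810 for those pairs. The genes of a library share its depth and scaling factor.

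**Figure D4:**
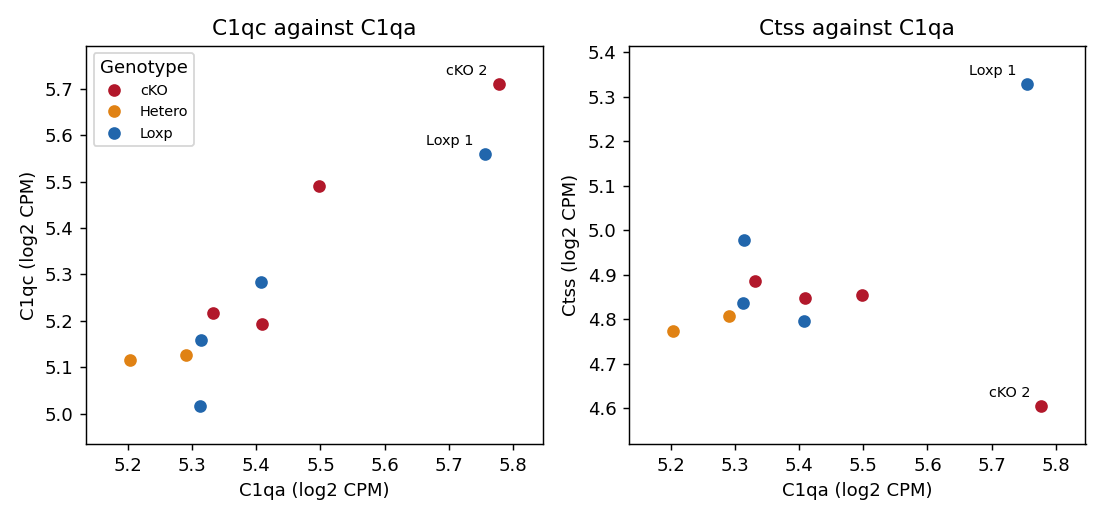
Log2 CPM of C1qc (left) and Ctss (right) against log2 CPM of C1qa in the 10 libraries, coloured by genotype. C1qc follows C1qa (r = 0.934), while for Ctss the libraries with the highest C1qa, cKO 2 and Loxp 1, stand at opposite ends (24.3 and 40.1 CPM of Ctss).

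In FPKM the ratio of C1qa to C1qc was 1.87 to 2.16 in cKO, 1.97 to 2.08 in Hetero and 2.02 to 2.28 in Loxp. The ratio of C1qa to C1qb was 1.24 to 1.62 in cKO, 1.45 to 1.5 in Hetero and 1.26 to 1.54 in Loxp. The ranges of the genotypes overlapped for both ratios. Of the 36 pairs, 30 had r above 0 (median 0.467) and 7 passed after adjustment by Pearson's r. Csf1r and Tmem119 were the tightest pair outside C1q, at r = 0.884 and rho = 0.818 (permutation p = 0.00182 and 0.00604, adjusted p = 0.0328 and 0.0725), and r was 0.656 without cKO 2 and Loxp 1. Cx3cr1 with Tmem119 had r = 0.816 and rho = 0.636 (permutation p = 0.00958 and 0.0532, adjusted p = 0.0493 and 0.201). Tmem119 with C1qa had r = 0.815 and rho = 0.721 (permutation p = 0.00609 and 0.0231, adjusted p = 0.0365 and 0.119). Csf1r with C1qa had r = 0.769 and rho = 0.879 (permutation p = 0.00384 and 0.00157, adjusted p = 0.0365 and 0.0283). Without the libraries farthest from the median of the gene named before, which included cKO 2 each time, r was 0.448 for Cx3cr1 with Tmem119, 0.256 for Tmem119 with C1qa and 0.430 for Csf1r with C1qa. The first and second of these relations did not pass by rank either, while Csf1r with C1qa did. Ctss had r above 0 in 3 of its 8 pairs, between −0.521 (P2ry12) and 0.334 (C1qb), and 0 passed. For P2ry12 and Trem2 too 0 pairs passed (smallest adjusted p = 0.0936 for each), and P2ry12 had r = −0.05 with C1qb.

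Genes outside the set were ranked by Pearson r with the mean level of the 9 genes over the 10 libraries, among 12304 genes with a mean log2 CPM over 2. The 10 closest were Cldn10, Exosc2, Mrps15, Nudt14, 1110065P20Rik, Cyba, Dhrs1, Eefsec, Arsa and Eif3f, at r = 0.900 to 0.943. Cldn10, a claudin expressed by astrocytes, led at r = 0.943 (rho 0.903), and Cyba, a subunit of the phagocyte NADPH oxidase, stood at r = 0.908 (rho 0.855). Without cKO 2 and Loxp 1 the r of the 10 genes was 0.296 to 0.774. With each genotype centred on its mean, the 10 closest were Ddx39b, Mdk, Rps16, Rpl13, Cdc42bpg, Lrrc73, Zfp771, Rps9, Rpl29 and Rpl3, of which 5 encode proteins of the cytosolic ribosome (r = 0.961 to 0.987). These genes were the closest of many, and the values carry no test.

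Over all 12304 ranked genes 51.8% had r above 0 with the level of the set (median 0.0242). Of 19 further homeostatic microglia genes ranked in this way 18 had r above 0 (median 0.405), as did 8 of 10 genes of Trem2 and Csf1r signalling and microglial transcription (median 0.427). Spi1, which encodes PU.1, stood at r = 0.745 and Tyrobp, the adaptor of Trem2, at 0.703. The 8 astrocyte markers all had r above 0 (median 0.613), as did 4 of 4 oligodendrocyte precursor markers (median 0.469), and 0 of the 8 excitatory neuron markers did (median −0.153). Of 14 genes listed as complement cascade and regulators 4 had r above 0 (median −0.279). That list also holds Cd47 and Sirpa, which are not part of the cascade, and neuronal genes such as Csmd2. Its values ran from −0.876 (Cd47) to 0.707 (Cfp), with C4b at −0.041. These shares carry no test.

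The 20 further homeostatic genes were all tested, and 0 passed in any comparison. By the sign of the log2 fold change, in cKO against Loxp 12 were higher and 8 lower (median 0.01). Selplg, the P-selectin ligand, averaged 25.7 CPM in cKO and 22.8 in Loxp, which edgeR put at 0.17 ± 0.0934 (log2 fold change ± SE, adjusted p = 1). Siglech, a sialic acid receptor of microglia, was at 0.18 (SE 0.131), P2ry13, another ADP receptor, at 0.25 (SE 0.192) and Laptm5, a lysosomal membrane protein of leukocytes, at 0.13 (SE 0.119). In Hetero against Loxp 3 were higher and 17 lower (median −0.09). Selplg stood at −0.25 (SE 0.117) and the receptor gene Gpr34 at −0.25 (SE 0.150), each without overlap between the groups. Of the 20 genes 3 lay lower in this way and 0 higher, against 5.77% and 5.64% of all genes. Fcrls, an Fc receptor-like gene of mouse microglia, was at −0.25 (SE 0.170) with overlap. In cKO against Hetero 18 were higher and 2 lower (median 0.12).

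Genes that act upstream of the receptors are made by neurons and glia. All 7 ligands and partners were tested, with 2 higher and 5 lower in cKO against Loxp (median −0.03) and in Hetero against Loxp (median −0.04), and 0 passed. Il34, the neuronal ligand of Csf1r, averaged 55.8 CPM in cKO and 60.5 in Loxp, which edgeR put at −0.12 ± 0.0672 (log2 fold change ± SE, adjusted p = 1). Csf1, the other ligand, was at −0.07 (SE 0.0994). Cx3cl1, which encodes fractalkine, averaged 1084 CPM in cKO and 1150 in Loxp, which edgeR put at −0.09 ± 0.0984 (log2 fold change ± SE, adjusted p = 1). Tgfb2, a transforming growth factor, was at 0.17 (SE 0.129). In Hetero against Loxp the lipoprotein genes Clu and Apoe, whose products bind Trem2, were at −0.13 (SE 0.119) and −0.07 (SE 0.116).

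Downstream of the receptors, 12 of 12 signalling and transcription factor genes were tested, 6 higher and 6 lower in cKO against Loxp (median 0.02) and 4 higher and 8 lower in Hetero against Loxp (median −0.05), with 0 passing. Inpp5d, a phosphatase that restrains Trem2 signalling, averaged 18.2 CPM in cKO and 15.8 in Loxp, which edgeR put at 0.20 ± 0.0968 (log2 fold change ± SE, adjusted p = 1). The kinase gene Syk was at −0.17 (SE 0.141) and the phospholipase gene Plcg2 at 0.18 (SE 0.199), and Irf8, a microglial transcription factor, was at 0.11 (SE 0.160). In Hetero against Loxp the exchange factor gene Vav1 was at −0.41 (SE 0.231), with no overlap between the groups. It was the only 1 of the 12 without overlap, against 11.4% of all genes in either direction. Of 20 genes linked to activated microglia 12 were tested, 4 higher and 8 lower in cKO against Loxp (median −0.03) and 5 higher and 7 lower in Hetero against Loxp (median −0.04), with 0 passing. Tlr2, a receptor for bacterial lipopeptides, was at 0.79 (SE 0.426) in cKO against Loxp, on means of 0.771 CPM in cKO and 0.443 CPM in Loxp.

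The rest of the complement system is made by several cell types. Of 33 genes listed as its cascade and regulators, a list that also holds Cd47 and Sirpa, 26 were tested. In cKO against Loxp 13 were higher and 13 lower (median −0.0016). In Hetero against Loxp 19 were higher and 7 lower (median 0.08), and 0 passed in either comparison. Cd55, which encodes a membrane inhibitor of the convertases, averaged 4.90 CPM in Hetero and 2.99 in Loxp, which edgeR put at 0.71 ± 0.217 (log2 fold change ± SE, unadjusted p = 0.00562, adjusted p = 1). In Hetero against Loxp 2 of the 26 lay higher without overlap and 1 lower, against 5.64% and 5.77% of all genes. The 2 higher were Cd55 and Csmd2, a neuronal complement control gene at 0.26 (SE 0.132). Sez6, another neuronal gene of that kind, was at 0.26 (SE 0.156) in Hetero against Loxp and 0.17 (SE 0.129) in cKO against Loxp. C4b, the factor cleaved by the C1 complex, was at −0.37 (SE 0.225) in Hetero against Loxp. Serping1, the inhibitor of C1, averaged 2.12 CPM in cKO and 2.87 in Loxp, which edgeR put at −0.44 ± 0.282 (log2 fold change ± SE, adjusted p = 1).

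Ctss was also set beside other lysosomal genes. Of 14 cathepsins, cystatins and lysosomal membrane proteins, all tested, 2 were higher and 12 lower in cKO against Loxp (median −0.05). In Hetero against Loxp 3 were higher and 11 lower (median −0.03), and 0 passed in either comparison. Of all genes 50.1% and 48.2% lay above 0 in these comparisons. The 14 summed to 2499 CPM in Loxp 1 and 2014 to 2268 in the other Loxp libraries. They summed to 2143 to 2297 CPM in cKO and 2185 to 2201 in Hetero. The part of Loxp 1 in these signs was not tested. Ctsc, an activator of serine proteases, was at −0.28 (SE 0.186), Ctsh at −0.19 (SE 0.133) and Ctsk at −0.19 (SE 0.174) in cKO against Loxp, and Lamp2, a lysosomal membrane protein, was at −0.13 (SE 0.0868). In Hetero against Loxp Lamp1 stood at −0.07 (SE 0.0790) and Lamp2 at −0.08 (SE 0.107), each without overlap between the groups. Of the 14 genes 2 lay lower in this way and 0 higher, against 5.77% and 5.64% of all genes.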

How the data were processed

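The submitters' processing notes name featureCounts 1.5.0-p3 and the mm10 build, with which the authors made the deposited read counts per gene. The aligner, annotation and strand setting were not given in the sources used here. FPKM per gene were also deposited and served only to compare levels between genes; another 12 columns, the authors' own comparisons, were not used. RNA from frozen tissue was extracted with Trizol and made into libraries with a NEBNext Ultra RNA kit, per the labels' protocols.

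All 10 libraries (totals 19332990 to 26086337) were fitted together in edgeR 4.0.16 (R 4.3.3) with TMM factors, filterByExpr, glmQLFit and glmQLFTest, with 1 mean per genotype. Benjamini-Hochberg adjustment ran over 18455 tested genes at 0.05. SE and 95% intervals follow from the fitted coefficient and its F statistic. Log2 CPM used a prior count of 2. The procedure was tested on simulated counts. Alternatives were DESeq2 1.42.0, limma-voom (limma 3.58.1), other scalings, filters and sample sets, a replicate block, and each library left out. Correlations drew 100000 permutations. Coordinates are from GENCODE M21, in which 52403 of the 52636 gene IDs were found.

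The 9 genes, the lists and the motifs were chosen with earlier results of these data known. From each list up to 4 genes with the smallest p in cKO or Hetero against Loxp were eligible to be named, with the 10 genes most like the set; Ttr, Spi1, Tyrobp and the markers of other cells were named after their values were seen.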

Additional observations from a re-analysis of the deposited data

Results flagged for a closer look

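Within the groups of 4 libraries, 20 sets of values (the 9 genes and their mean level, in cKO and in Loxp) were screened for a library set apart from the others, and chance flags about 1 group in 20. In cKO, Csf1r stood at 93.7 CPM in cKO 2, against 79.6 to 81.9 CPM in the other 3 libraries. Ctss in the same library was low, at 24.3 CPM, against 28.7 to 29.5 CPM in the other 3. In Loxp the mean level of the 9 genes was 0.15 on the log2 scale in Loxp 1, against −0.05 to −0.02 in the other 3. No cause was tested.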

How the results depend on the processing

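No gene of the set passed an adjusted p of 0.05 in any of 396 values over the alternatives and left-out libraries; the smallest adjusted p was 0.922. The sign of the log2 fold change turned in 16 values with a library left out (164 did not turn) and in 2 of the other values (214 did not). The median of the set moved by less than the SD of its level in Loxp (0.0947) in each. Over all genes, edgeR called 32 in cKO against Loxp, 68 in Hetero against Loxp and 39 in cKO against Hetero with no low-count filter. DESeq2 called 2 (Egr2 and Neurod6, named after the values were seen), 17 and 3. The cause was not tested. Among the 39 were Eif2s3y, Ddx3y, Kdm5d and Uty, genes of the Y chromosome, named after the values were seen. Whether the sex of the animals differed between the groups, and its part in the values of the set, was not tested. Leaving out a library gave 0 to 1 calls in cKO against Loxp (mt-Nd4l, without cKO 2), 0 to 15 in Hetero against Loxp and 0 to 14 in cKO against Hetero, the most without Hetero 1, where the lone Hetero 2 is assumed to vary like the other groups. Ctss turned to −0.00079 in cKO against Hetero with library size alone. limma-voom called 0 genes in each comparison. In cKO against Loxp, leaving out a library gave −0.041 to 0.168 for C1qa, −0.0627 to 0.0787 for C1qb, −0.0621 to 0.0696 for Cx3cr1 and −0.114 to 0.119 for Tmem119. It gave −0.017 to 0.0696 for Ctss and −0.0303 to 0.188 for P2ry12 in cKO against Hetero, and −0.0114 to 0.203 for P2ry12 and −0.0833 to 0.0109 for Trem2 in Hetero against Loxp.

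A replicate block in the edgeR design gave 1 called gene (Arc) in cKO against Loxp and 1 (also Arc) in Hetero against Loxp. With it P2ry12 turned to −0.0256 in Hetero against Loxp, and the median of the set there was −0.205, beside −0.148 without it. The labels do not say what the numbers share. Deviations of same-numbered cKO and Loxp libraries correlated at 0.0419 to 0.322, and 8 of 8 libraries correlated best with their own number. As not all of these values were over 0.1, the numbers were not taken as pairs. The main p-values and intervals therefore do not allow for anything that same-numbered libraries share. Trem2 had the fewest counts of the 9 genes, 236 to 344 per library.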
